A study of Sciaenops ocellatus with 36 samples.

Results

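The HOX cluster genes of red drum (Sciaenops ocellatus), a marine fish of the Gulf of Mexico, were followed through early development and under crude oil. They were taken as the rows whose gene symbol is HOX, a cluster letter from A to D and a paralog group number, with a summed count of at least 30 in at least 1 of the 6 deposited tables. Of 56346 rows per table, 39 carried such a symbol and 29 were members. The other 10 symbols, HOXD1, HOXA3, HOXB5, HOXB6, HOXA7, HOXB7, HOXD8, HOXD9, HOXC13 and HOXD13, were at 0 in all 6 tables, so no symbol lay just under the threshold. The members nearest above it were HOXD12, HOXA13 and HOXB1, with summed counts of 196, 217 and 219 in the table where each was highest.

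HOX genes encode homeodomain transcription factors that sit in clusters and give cells along the head-to-tail axis their regional identity. Genes of low paralog number lie at one end of a cluster and act in the hindbrain and neck region, and those of high number act toward the trunk end, the tail and the outer part of limbs and fins. The order along the cluster also sets the usual order in which the genes are switched on in the embryo, and retinoic acid, CDX factors and Polycomb and Trithorax chromatin proteins are their known regulators. Fish went through an additional genome duplication and carry more HOX genes than mammals, so 1 human symbol here may stand for several fish genes.

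Each library was made from 30 pooled whole embryos or larvae, sampled at 24, 48 or 72 hours post fertilisation (hpf). Treated animals were exposed either to naturally weathered oil collected from a surface slick (slick oil), labelled with a concentration of 2.5%, or to a non-weathered oil used as a stand-in for the Deepwater Horizon wellhead oil (source oil), labelled 0.27%. What the percentages are of is not given in the labels. Each oil series had its own untreated controls. Slick oil had 3 libraries at each age. Source oil had 3 libraries at 24 hpf and 3 at 72 hpf, and the 48 hpf source-oil group was not analysed here. Controls comprised 3 source-series libraries at each age and, in the slick series, 2 libraries at 24 hpf and 3 at 48 hpf. The slick-series 72 hpf controls were not analysed here, and the slick-oil table at that age holds the source-series controls in their place. Labels do not say whether libraries of a group came from separate spawns or tanks, so p-values measure only the spread between these pools, which may be technical. In whole animals, fewer cells of a type and less RNA per cell cannot be told apart.

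Library totals ran from 4771970 to 5880720 counts in the 24 hpf source-oil table and from 2532770 to 3280940 in the other tables, of which HOX rows took 7307 to 9004 and 1995 to 4615 counts. Levels are CPM, counts scaled to a common library size after TMM scaling, which evens out differences in library composition. They are compared between samples only, since CPM is not corrected for gene length. The 24 hpf source-oil table was scaled on its own, because it spread reads over the symbols differently. The strand setting of the counting is not given in the sources used here, and reads of near-identical HOX paralogs may have been split or merged, so the identity of a single paralog is uncertain throughout. The HOX antisense rows of the tables were all at 0.

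The set of HOX symbols with reads depended on the table. There were 28 members above 0 in the 24 hpf source-oil table and 18 in each of the other 5 tables, with 17 shared. The 11 members with reads in the 24 hpf source-oil table alone were HOXA2, HOXB3, HOXA4, HOXD4, HOXB8, HOXC8, HOXB9, HOXC9, HOXA10, HOXC11 and HOXD11. HOXD3 had reads in the other 5 tables alone. No row of paralog group 7 had reads, and those of paralog group 8 had them in the 24 hpf source-oil table alone. The same symbols therefore fill or empty with the table and not with age, since slick-series and source-series controls of the same age, 24 hpf, fall on either side.

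Levels at 24 hpf illustrate this. HOXC8, a gene of trunk patterning in mouse, stood at 133, 142 and 129 CPM in the source-series controls and at 0 in both slick-series controls. HOXD3, which patterns the first neck vertebrae in mouse, stood at 127 and 147 CPM in the 2 slick-series controls and at 0 in the 3 source-series controls. Summed over paralog group 4, however, the controls of both tables were alike, with 458 ± 40 CPM (SD, n = 3) in the source series and 456 ± 51 CPM (n = 2) in the slick series. Paralog group 10 likewise stood at 82.0 ± 10 CPM (SD, n = 3) against 75.5 ± 9.5 CPM (n = 2). Paralog group 9 differed, with 171 ± 6.1 CPM (SD, n = 3) in the source series and 72.8 ± 12 CPM (n = 2) in the slick series, and so did paralog group 11, with 49.5 ± 4.1 CPM against 108 ± 3.6 CPM. For this reason changes with age were taken from the 5 tables that share 1 set of symbols, and 24 hpf source-oil larvae were compared only with the controls of their own table.

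Across age, summed HOX RNA was lower at 72 hpf than at 48 hpf, and from 24 to 48 hpf its direction depended on the scaling. Over all members it stood at 1430 ± 141 CPM (SD, n = 2) in 24 hpf slick-series controls and 1267 ± 115 CPM (n = 3) at 48 hpf. In source-series controls it went from 1104 ± 62 CPM (SD, n = 3) at 48 hpf to 771 ± 29 CPM (n = 3) at 72 hpf. The 24 and 48 hpf ranges overlapped, from 1330 to 1530 and from 1184 to 1398 CPM, whereas each 72 hpf control library lay below every 48 hpf library. In slick oil the same sum was 1450 ± 81 CPM at 24 hpf, 1345 ± 119 CPM at 48 hpf and 892 ± 45 CPM at 72 hpf (SD, n = 3 each). Scaled to library totals alone, without TMM, slick-series controls stood at 1280 and 1471 CPM at 24 hpf. At 48 hpf they stood at 1522, 1283 and 1317 CPM, in much the same range. Slick oil by library totals stood at 1341, 1538 and 1370 CPM at 24 hpf and at 1349, 1567 and 1577 CPM at 48 hpf, with no fall.

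**Figure D1:**
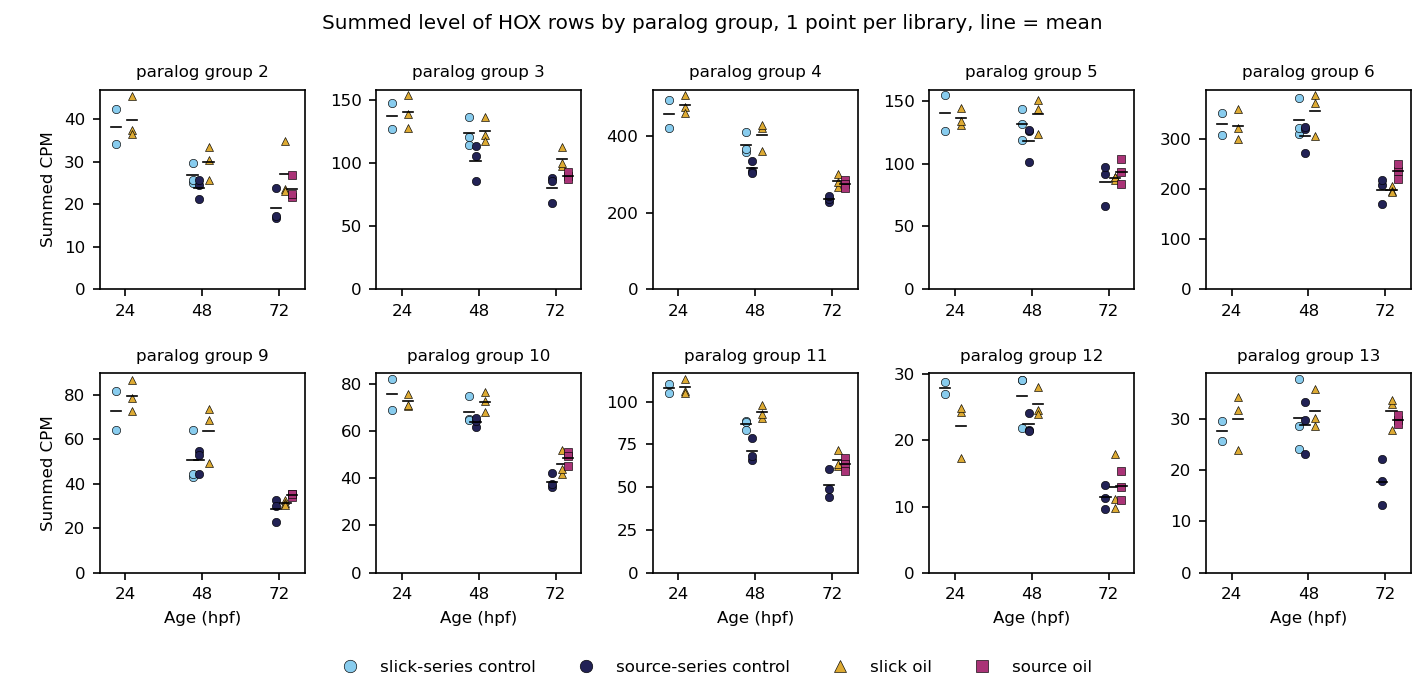
Summed CPM of the HOX rows of 10 paralog groups against age in hpf, with 1 point per library and a line at the mean of each group, for the 5 tables scaled together. Points of paralog groups 6, 10 and 12 change little and then drop by 72 hpf, and in paralog group 13 the 3 control libraries at 72 hpf lie lowest.

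Between 24 and 48 hpf the members that fell in controls lay in paralog groups of low and of high number. HOXB1, which sets the identity of a hindbrain segment in mouse and zebrafish, stood at 9.99 and 8.53 CPM in the 24 hpf slick-series controls and at 5.06, 5.15 and 2.92 CPM at 48 hpf. In slick oil it stood at 4.89, 8.76 and 10.3 CPM at 24 hpf and at 3.596, 3.06 and 3.08 CPM at 48 hpf. The ages did not overlap in either set. The log2 fold change was -1.04 (SE 0.36, edgeR adjusted p = 0.019) in controls and -1.30 (SE 0.31, adjusted p = 0.0017) in slick oil. The slick-oil call held under all 9 alternatives tried. The control call was lost in DESeq2, without 24 hpf replicate 2 or 3 and without 48 hpf library 3, and against the source-series controls at 48 hpf the log2 fold change was -2.30.

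HOXB2, a further hindbrain gene, fell as well. Its levels were 34.0 and 42.3 CPM in the 24 hpf controls and 25.0, 25.8 and 29.6 CPM at 48 hpf (log2 fold change -0.51, SE 0.16, edgeR adjusted p = 0.011). The corresponding change in slick oil was -0.43 (SE 0.15, adjusted p = 0.030). That call was lost in DESeq2 and without 24 hpf replicate 2 or 48 hpf library 2. Within paralog group 4, HOXC4 changed by -0.31 and HOXB4, which patterns the neck vertebrae in mouse, by -0.24 in controls (SE 0.10 and 0.09, edgeR adjusted p = 0.011 and 0.046). HOXA9, a gene of the trunk and of blood progenitors in mouse, changed by -0.51 (SE 0.16, edgeR adjusted p = 0.0090), although its highest 48 hpf control, at 64.2 CPM, touched the lower 24 hpf control at 64.0 CPM. HOXA11, a limb and kidney gene in mouse, changed by -0.30 (SE 0.11, edgeR adjusted p = 0.036). The falls of single members in this interval are after TMM scaling. They were not refitted on library totals alone, by which the summed HOX level of these controls stayed in much the same range. In controls HOXB2, HOXC4, HOXB4, HOXA9 and HOXA11 lost the call without 24 hpf replicate 3. HOXB2, HOXB4 and HOXA11 also lost it in DESeq2, HOXB4, HOXA9 and HOXA11 without 48 hpf library 2, HOXB4 without 48 hpf library 3 and without the low-count filter, and HOXA11 without 24 hpf replicate 2.

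In all, 7 of the 17 members tested fell in controls between 24 and 48 hpf and none rose, beside 42.8% of all 9552 rows tested that passed in either direction and 20.6% that passed as lower. In slick oil 6 of 17 fell and none rose, where 39.9% of all rows passed and 19.8% as lower. All 6, with HOXB1, HOXB2, HOXB4, HOXC4 and HOXA9 among them, were also among the 7 of the controls. The overlap of calls over all rows is not given here. In slick oil HOXA9 lost the call in DESeq2, without 24 hpf replicate 2 or 3 and without 48 hpf library 1, HOXC4 without 24 hpf replicate 1 or 2 or 48 hpf library 1, and HOXB4 without 48 hpf library 1. Rows of paralog groups 5 and 6 gave log2 fold changes from -0.18 to 0.06 in controls, none of which passed. HOXA13, which shapes the outer limb in mouse and the fin rays in zebrafish, had the highest value of the set, 0.65 (SE 0.30, edgeR adjusted p = 0.088), and did not pass. Only 2 slick-series control libraries were available at 24 hpf, and without replicate 3, the higher of them in summed HOX level, 1 member passed in controls. Without replicate 2, 4 did. Either way 1 library remained at that age, which the fit assumes to vary like the other control groups. DESeq2 called 2 of 18 members in controls, beside 32.4% of all rows, and 4 of 18 in slick oil, beside 28.1%. By that tool the members' share was under that of all rows. In edgeR the members' 41.2% in controls was near the share of rows that passed in either direction and above the share that passed as lower.

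Over the 17 members the control and slick-oil changes from 24 to 48 hpf gave a Pearson correlation of 0.93, beside 0.90 over the 9243 rows tested in both. These sets share no library, but they share the rows, the counting and the scaling, and the members are no independent replicates. The sign was the same for 14 of the 17.

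Between 48 and 72 hpf most members fell, in controls and in slick oil. In controls 13 of 17 members fell and none rose, beside 31.4% of all 9552 rows that passed and 13.7% as lower. The median log2 fold change of the 17 members was -0.47, where that of all rows was -0.01. In slick oil 12 of 17 fell and none rose (41.2% of all 9300 rows passed and 19.2% as lower), with a median of -0.63 where that of all rows was 0.00. All 12 were also among the 13 of the controls. The overlap of calls over all rows is not given here, so this is a description only.

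HOXA9 again moved far. Its control levels were 44.5, 54.7 and 52.7 CPM at 48 hpf and 22.9, 32.7 and 29.9 CPM at 72 hpf, without overlap. The log2 fold change was -0.83 (SE 0.16, edgeR adjusted p = 0.00018), and in slick oil it was -1.01 (SE 0.14, adjusted p = 6e-06). HOXC12, of the next to last paralog group, stood at 19.97, 22.6 and 18.8 CPM in controls at 48 hpf and at 12.95, 10.5 and 9.27 CPM at 72 hpf, again without overlap. Its log2 fold change was -0.91 (SE 0.19, edgeR adjusted p = 0.00033) in controls and -1.04 (SE 0.21, adjusted p = 0.00043) in slick oil.

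HOXD10, which acts in lumbar motor neurons in mouse, went from 32.1, 31.8 and 34.6 CPM to 20.4, 17.5 and 17.8 CPM in controls (log2 fold change -0.82, SE 0.14, edgeR adjusted p = 3.1e-05). Both ages formed tight, separate groups. HOXC10, which acts beside it in mouse, changed by -0.63 in controls and in slick oil alike (SE 0.16 and 0.14, edgeR adjusted p = 0.0025 and 0.0015). HOXC6 and HOXA6, thoracic patterning genes in mouse, had been level between 24 and 48 hpf and then fell, HOXC6 by 0.64 on the log2 scale in controls (SE 0.10, edgeR adjusted p = 1.6e-05) and by 0.85 in slick oil (SE 0.09, adjusted p = 2.3e-07). HOXA6 changed by -0.58 in controls (SE 0.11, adjusted p = 0.00017) and by -0.79 in slick oil (SE 0.11, adjusted p = 7.6e-06).

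HOXA5, known for its part in the lung and the neck-to-trunk boundary in mouse, changed by -0.45 in controls and by -0.66 in slick oil (SE 0.13 and 0.10, edgeR adjusted p = 0.0066 and 2.6e-05). HOXB4 changed by -0.46 and -0.42 and HOXD3 by -0.33 and -0.27 in controls and slick oil. HOXA11 changed by -0.47 and -0.50, HOXC4 by -0.35 and -0.66 and HOXC5 by -0.51 and -0.62, and each of these passed. HOXD3 lost the control call in DESeq2 and without 48 hpf library 1 or 2 or 72 hpf library 2, HOXA5 without 72 hpf library 1, and HOXC5 without 48 hpf library 3 or 72 hpf library 1. In slick oil HOXD3 lost it in DESeq2 and without 48 hpf library 3 or 72 hpf library 2 or 3. HOXB1, HOXB2 and HOXA13 did not pass in this interval in either set. HOXB1, at 0.713 to 4.81 CPM in the 72 hpf controls, had a log2 fold change of 0.69 in controls (SE 0.50) and -0.49 in slick oil (SE 0.42), so no direction could be given for it.

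**Figure D2:**
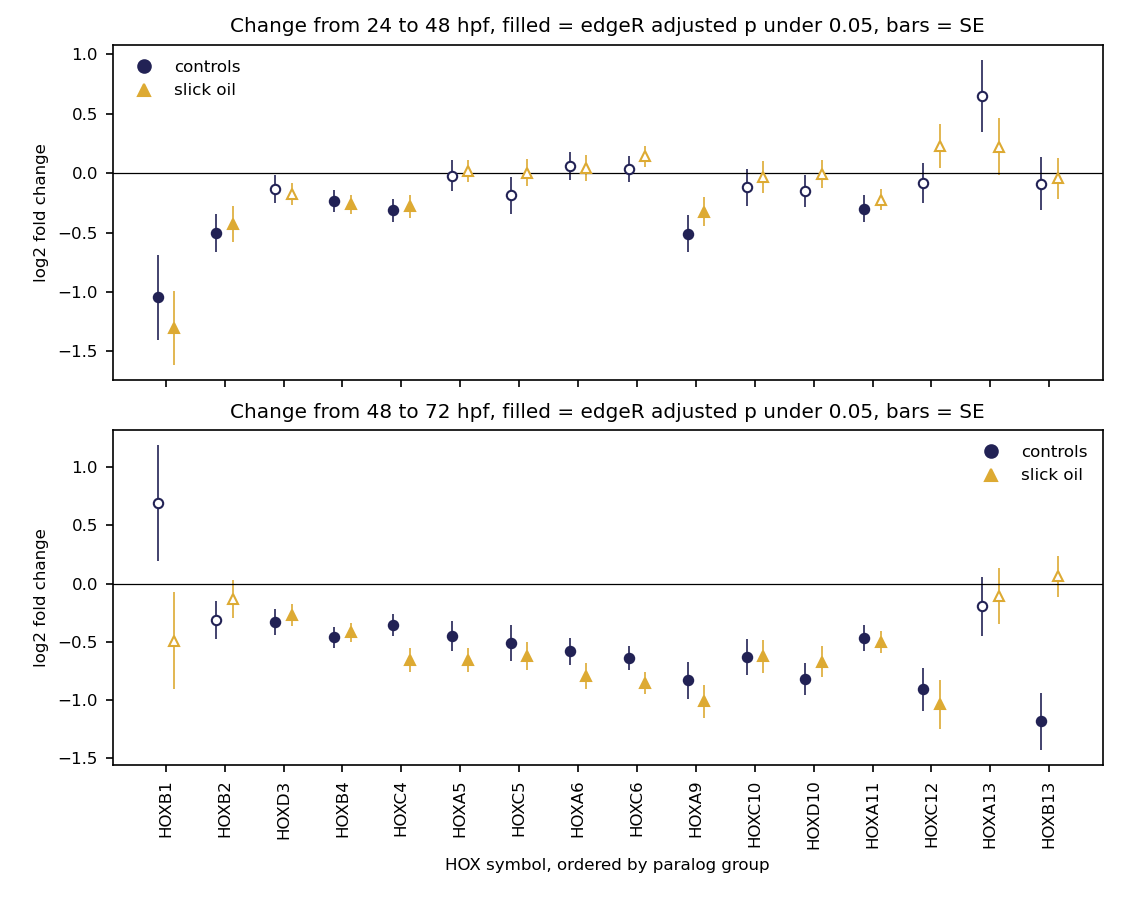
Log2 fold change of HOX rows from 24 to 48 hpf (upper panel) and from 48 to 72 hpf (lower panel) in controls (circles) and slick oil (triangles), ordered by paralog group. Bars are the SE and filled symbols passed edgeR's adjusted threshold of 0.05; the upper panel falls toward HOXB1 at the left, the lower panel lies below 0 from HOXD3 to HOXC12, and HOXB13 at the far right separates, at -1.18 in controls and 0.06 in slick oil.

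Sorted by interval, 4 members fell in controls in both (HOXB4, HOXC4, HOXA9 and HOXA11), 3 passed from 24 to 48 hpf alone (with HOXB1 and HOXB2 among them) and 9 from 48 to 72 hpf alone (HOXD3, HOXA5, HOXC5, HOXA6, HOXC6, HOXC10, HOXD10, HOXC12 and HOXB13). HOXA13 passed in neither. The shares of all rows in these classes are not given here, so the sorting is a description only. Whether a member's change differed between the intervals was not tested, and the control intervals come from different oil series. For 48 to 72 hpf, the median log2 fold change in controls was -0.40 over the 10 rows of paralog groups 1 to 8 and -0.82 over the 7 rows of groups 9 to 13. The corresponding medians in slick oil were -0.64 and -0.63. These medians are a description, and their difference was not tested.

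HOXB13, the last gene of its cluster, acts at the tail end of the axis in mouse. In controls it went from 19.97, 18.0 and 14.4 CPM at 48 hpf to 7.77, 10.5 and 4.99 CPM at 72 hpf (log2 fold change -1.18, SE 0.24, edgeR adjusted p = 0.00039), the largest fall among the 17 members. In slick oil it stood at 16.8, 21.1 and 20.9 CPM at 48 hpf and at 20.9, 20.6 and 19.7 CPM at 72 hpf (log2 fold change 0.06, SE 0.17, adjusted p = 0.81). Across the 5 tables the other 7 groups had HOXB13 means from 16.6 to 20.4 CPM, and no library among them lay below 14.4 CPM. The 72 hpf controls stood alone below that, with 21, 27 and 14 counts. Whether the age change of HOXB13 differed between controls and slick oil was not tested as such; HOXB13 and HOXB1 were the members with the widest gaps between the sets, and the correlation over the 17 members was 0.14 for this interval (0.81 over all 9243 rows).

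With oil, no HOX member passed at 24 or 48 hpf. Source oil at 24 hpf had 0 of 28 members called by edgeR, beside 5.42% of all 9793 rows. DESeq2 also called 0 of the members, beside 3.42% of rows. At an unadjusted p under 0.05, 4 of the 28 passed, beside 15.8% of all rows. HOXA2, which gives the second pharyngeal arch its identity in mouse and zebrafish, came nearest, with 50.5, 57.6 and 56.0 CPM in controls and 66.1, 64.7 and 69.9 CPM in source oil. These groups did not overlap, and the log2 fold change was 0.29 (SE 0.09, edgeR adjusted p = 0.067). HOXB3, a hindbrain gene, also had all 3 oil libraries above all controls, at 108, 110 and 121 CPM against 95.5, 101 and 91.1 CPM (log2 fold change 0.24, SE 0.08, adjusted p = 0.10). HOXC8, by contrast, had all 3 oil libraries below the controls, at 126, 119 and 112 CPM (log2 fold change -0.17, SE 0.08, adjusted p = 0.27). Of the 28 members, 2 thus lay wholly above the controls and 1 wholly below. That share was not computed over all rows, so the lack of overlap is a description only. The log2 fold changes of all 28 ran from -0.31 to 0.29. HOXD12, which acts in the digits in mouse and was under the low-count filter in the other tables, read 5.45, 6.31 and 6.66 CPM in controls and 7.55, 5.94 and 4.62 CPM in source oil, and the groups overlapped.

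Slick oil at 24 hpf had 0 of 17 members called by edgeR or DESeq2, beside 2.19% and 1.24% of all rows, and 0 at an unadjusted p under 0.05, beside 11.9% of rows. Slick oil at 48 hpf had 0 of 16 called by edgeR, 0 by DESeq2 (15 had an adjusted p there) and 0 at an unadjusted p under 0.05, beside 2.68%, 2.92% and 16.6% of all rows. Log2 fold changes ran from -0.34 for HOXC12 to 0.48 for HOXA13 at 24 hpf and from -0.43 for HOXB1 to 0.34 for HOXA9 at 48 hpf. Their SEs had medians of 0.13 and 0.12. HOXA9 at 48 hpf read 49.1, 73.7 and 68.6 CPM in slick oil and 64.2, 43.0 and 44.5 CPM in controls, which overlap. Without slick-oil library 1, HOXA9 passed with a log2 fold change of 0.49. The change of the slick-oil effect from 24 to 48 hpf, tested as an interaction, passed for 0 of 17 members in edgeR, for 0 of the 8 with an adjusted p in DESeq2, and for none at an unadjusted p under 0.05. No row of the whole table passed adjusted (0%), and 11.3% did unadjusted.

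At 72 hpf some HOX members were higher in both oils. There 15 of the 18 members with reads were tested, and HOXB1 and HOXD12 were among those under the low-count filter. HOXD12 was also under it with slick oil at 24 and 48 hpf. Both comparisons rest on the same 3 source-series control libraries, so they are not independent of each other, and slick oil is set there against controls of the other series. Against them slick oil had 5 of 15 members higher and none lower (18.6% of all 8972 rows passed, 8.55% as higher). Source oil had 4 of 15 higher and none lower (20.4% of all 8983 rows passed, 11.4% as higher). DESeq2 called 2 of 15 with slick oil and 1 of 15 with source oil, beside 12.4% and 14.2% of all rows, so by that tool the members' share was near or under that of all rows. The median log2 fold change of the 15 was 0.16 with slick oil and 0.27 with source oil, where that of all rows was 0.01 and 0.00. Summed HOX RNA was 771 ± 29 CPM in controls, 912 ± 31 CPM in source oil and 892 ± 45 CPM in slick oil (SD, n = 3 each), and the control libraries, from 740.5 to 797 CPM, lay below all 6 oil libraries, from 854 to 941 CPM.

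HOXB13 differed most. At 7.77, 10.5 and 4.99 CPM in controls, it read 15.9, 16.1 and 17.8 CPM in source oil and 20.9, 20.6 and 19.7 CPM in slick oil, with no overlap between controls and either oil. The log2 fold change was 1.42 with slick oil (SE 0.22, edgeR adjusted p = 1.4e-05) and 1.13 with source oil (SE 0.24, adjusted p = 0.0012). It passed under all 9 alternatives tried in each oil, with log2 fold changes from 1.17 to 1.68 and from 0.88 to 1.39. In the authors' deposited tables HOXB13 was likewise past an adjusted p of 0.05 at 72 hpf in both oils. HOXB4 and HOXD3 were past it there with slick oil as well, and with source oil HOXB13 was the only member past it. As described above, the 72 hpf controls are the group that lies apart from every other group in HOXB13.

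HOXB4 was the other member higher with both oils, with 144, 145 and 151 CPM in controls, 185, 171 and 170 CPM in source oil and 197, 177 and 184 CPM in slick oil. Controls overlapped with neither oil, and the oils overlapped each other. The log2 fold change was 0.36 with slick oil (SE 0.09, edgeR adjusted p = 0.0027), where all 9 alternatives kept the call. With source oil it was 0.27 (SE 0.09, adjusted p = 0.039), and there the call held in 1 of 9 alternatives: it was lost in DESeq2, without the low-count filter, and when any 1 of the 6 libraries was left out (adjusted p from 0.045 to 0.19 over all alternatives).

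With slick oil, HOXD3, HOXA11 and HOXB2 passed too. HOXD3 read 113, 97.5 and 100 CPM against 87.7, 68.0 and 85.5 CPM in controls, without overlap (log2 fold change 0.38, SE 0.10, edgeR adjusted p = 0.010). HOXA11 read 71.9, 62.1 and 63.5 CPM against 60.7, 49.0 and 44.2 CPM, also without overlap (0.38, SE 0.12, adjusted p = 0.024). HOXB2 read 34.9, 23.5 and 23.0 CPM against 23.7, 16.7 and 17.1 CPM, and here the groups overlapped (0.52, SE 0.18, adjusted p = 0.048). All 3 lost the call in DESeq2 as run here, without control library 2 and without slick-oil library 1, HOXA11 and HOXB2 also without control library 3, and HOXB2 without slick-oil library 2. Of these 3, HOXD3 alone was past an adjusted p of 0.05 in the authors' deposited values.

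With source oil, HOXC6 and HOXD10 passed. HOXC6 read 160, 160 and 150 CPM against 110, 136 and 133 CPM in controls, without overlap (log2 fold change 0.33, SE 0.10, edgeR adjusted p = 0.022). HOXD10 read 22.8, 27.7 and 26.2 CPM against 20.4, 17.5 and 17.8 CPM, also without overlap (0.48, SE 0.17, adjusted p = 0.041). HOXC6 lost the call in DESeq2 and without control library 1 or source-oil library 1 or 2, and HOXD10 in DESeq2 and without control library 2 or 3 or source-oil library 2 or 3.

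**Figure D3:**
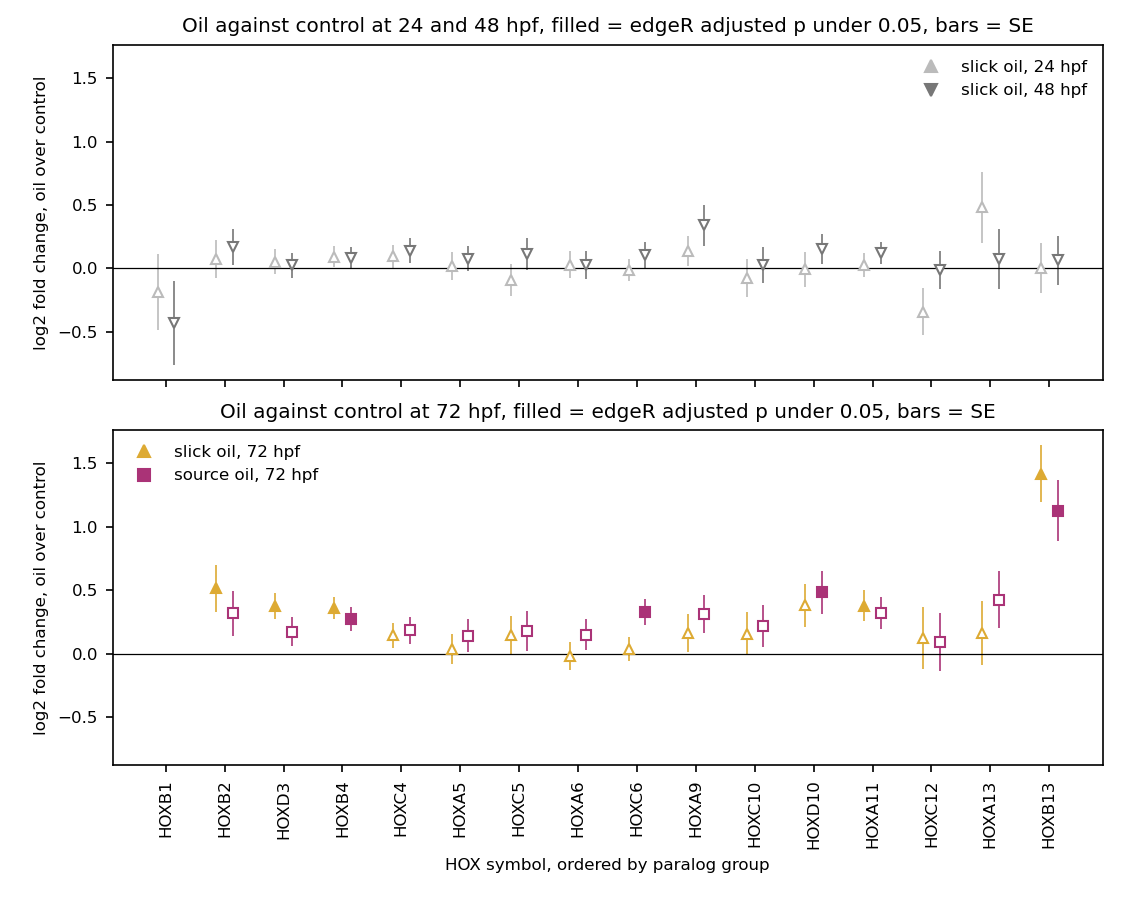
Log2 fold change of oil over control for HOX rows, with slick oil at 24 and 48 hpf in the upper panel and both oils at 72 hpf in the lower. Bars are the SE and filled symbols passed edgeR's adjusted threshold of 0.05; no symbol of the upper panel is filled, and in the lower panel HOXB13 stands highest, at 1.42 with slick oil and 1.13 with source oil, among values that otherwise run from -0.02 to 0.52.

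Set directly against each other at 72 hpf, with no control in the contrast, slick and source oil differed in 1 of 15 members, where 16% of all 9185 rows passed. HOXC6 was lower in slick oil, at 133, 129 and 123 CPM against 160, 160 and 150 CPM in source oil, without overlap (log2 difference -0.27, SE 0.09, edgeR adjusted p = 0.047). The call was lost in DESeq2, without the low-count filter, and when any of 5 of the 6 oil libraries was left out (adjusted p from 0.037 to 0.14 over all alternatives). HOXB13 differed between the oils by 0.31 (SE 0.19, adjusted p = 0.27) and HOXD3 by 0.23 (SE 0.10, adjusted p = 0.14). Oils, doses and series differ together here and cannot be told apart.

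**Figure D4:**
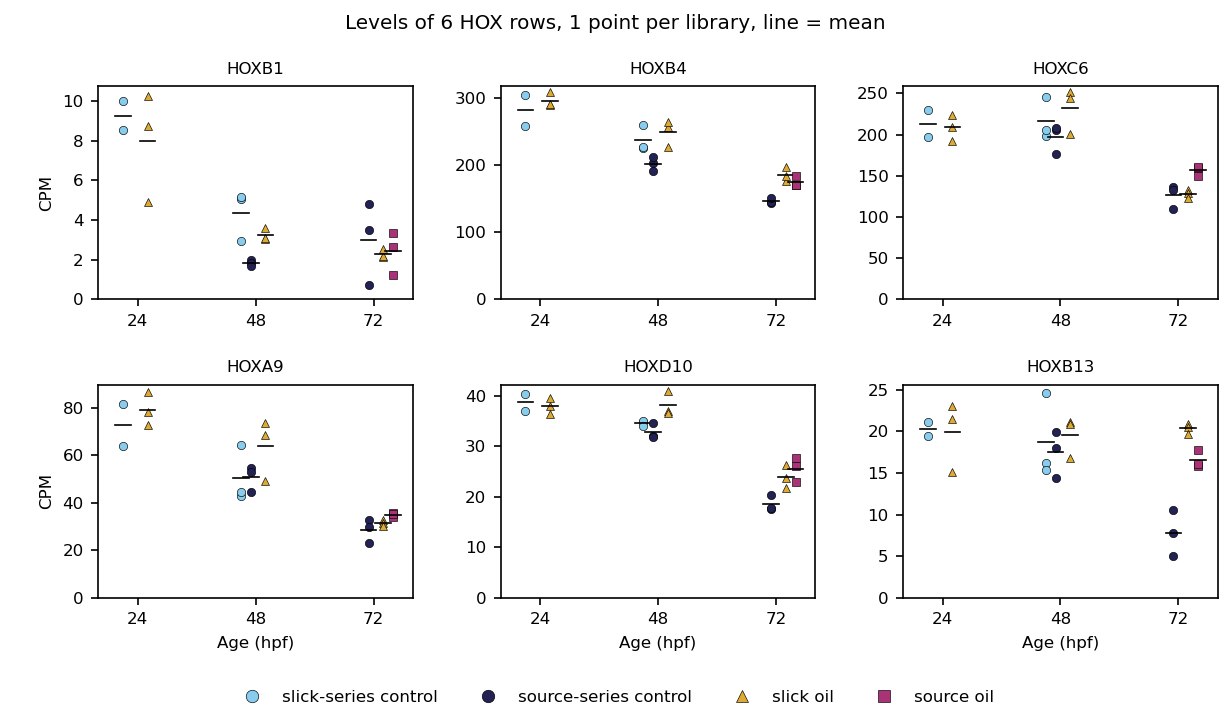
CPM of 6 HOX rows against age in hpf, with 1 point per library and a line at the mean of each group, for the 5 tables scaled together. HOXB1 drops after 24 hpf, HOXA9 and HOXD10 are lowest at 72 hpf, HOXC6 at 72 hpf is higher in source oil (150 to 160 CPM) than in controls (110 to 136 CPM), and HOXB13 is low in the 3 control libraries at 72 hpf alone (4.99 to 10.5 CPM).

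Because slick oil at 72 hpf was set against source-series controls, the controls of both series were compared at 48 hpf, the age at which both share 1 set of symbols. Slick-series controls gave a higher value in 16 of 17 members, with a median log2 difference of 0.16 where that of all rows was -0.01. HOXC4 passed, with 149, 132 and 138 CPM in the slick series against 106, 122 and 112 CPM in the source series (0.30, SE 0.09, edgeR adjusted p = 0.046; 5.29% of all 9552 rows passed), and it lost the call under all 9 alternatives. The median difference between the control series at 48 hpf was thus as large as that of slick oil over source-series controls at 72 hpf, 0.16 in both. HOXB13 differed between the control series by 0.11 (SE 0.20, adjusted p = 0.81) and HOXB4 by 0.23 (SE 0.09, adjusted p = 0.11). HOXD3 and HOXA11, each at 0.38 with slick oil at 72 hpf, both differed between the control series by 0.29. Their SE was 0.11 and their edgeR adjusted p 0.11, and the slick-series controls lay wholly above. HOXB2 differed by 0.16 (SE 0.15, adjusted p = 0.60). The part of the series difference in the 72 hpf slick-oil values was not tested.

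Genes that work with the HOX proteins or regulate them were followed as lists. The TALE cofactors (PBX, MEIS and PKNOX genes), which bind DNA together with HOX proteins, had 0 of 8 rows called by edgeR or DESeq2 in each of the 5 oil comparisons. In these comparisons 2.19% to 20.4% of all rows passed in edgeR and 1.24% to 14.2% in DESeq2. Of the 40 TALE tests, 1 was at an unadjusted p under 0.05 in edgeR, beside 11.9% to 32.2% of all rows. Between 48 and 72 hpf 6 of the 8 TALE rows fell in controls and 7 of 8 in slick oil, with none higher, beside 13.7% and 19.2% of all rows that passed as lower. On the list of CDX genes and genes taken as cluster neighbours, the chromatin gene CBX3 was lower at 72 hpf with slick oil (-0.50, SE 0.12, edgeR adjusted p = 0.0021) and with source oil (-0.42, SE 0.12, adjusted p = 0.016). It was the single row called among 6 and 5 tested, beside 18.6% and 20.4% of all rows, so this count is no result about the list.

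The retinoic acid pathway had 2 of 19 rows lower with slick oil at 48 hpf, beside 0.759% of all rows that passed as lower. CYP26A1, which degrades retinoic acid, read 8.99, 10.4 and 11.7 CPM in slick oil at 48 hpf against 13.9, 20.3 and 27.7 CPM in controls, without overlap (log2 fold change -0.97, SE 0.23, edgeR adjusted p = 0.037). RBP4, the retinol carrier of blood, was lower at 48 hpf (-0.53, SE 0.08, adjusted p = 0.00098) and at 72 hpf (-0.69, SE 0.09, adjusted p = 5.9e-07). At 72 hpf CYP26A1 was higher in slick oil than in source-series controls (0.69, SE 0.16, edgeR adjusted p = 0.0020). Its levels were 30.2, 28.2 and 28.8 CPM against 15.9, 20.2 and 18.5 CPM. The 48 hpf controls were of the slick series, and the change of the oil effect between these ages was not tested. With slick oil at 72 hpf 3 of 18 rows of the list passed, 2 higher and 1 lower. This was near the 18.6% of all rows that passed, so the 72 hpf slick-oil count is no result about the list. Source oil at 72 hpf had 2 of 18 rows higher, RDH10, which makes the retinoic acid precursor (0.52, SE 0.11, adjusted p = 0.0010), and CRABP2, an intracellular carrier (0.57, SE 0.18, adjusted p = 0.021). That count was near the 11.4% of all rows that passed as higher, so it is no result about the list.

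Of the Polycomb and Trithorax genes, 2 of 28 were higher and 4 lower with slick oil at 72 hpf, and 3 higher and 3 lower with source oil. These counts were near the share over all rows (18.6% and 20.4%), so they are no result about the list. RBBP4 and RBBP7, histone-binding subunits of the Polycomb complex that methylates histone H3 and of other complexes, were lower in both: RBBP4 by -0.67 and -0.32 and RBBP7 by -0.65 and -0.35 on the log2 scale (slick, then source oil; edgeR adjusted p from 3.2e-06 to 0.018). EED, a core subunit of the same complex, changed by -0.60 and -0.37 (adjusted p = 0.00049 and 0.034). CBX7, of the complex that reads this mark, was higher with source oil (1.17, SE 0.16, adjusted p = 3.3e-06). Among hindbrain and axial patterning factors 2 of 14 were higher with slick oil at 72 hpf, LIN28B (0.52, SE 0.14, adjusted p = 0.0062) and LIN28A (0.81, SE 0.23, adjusted p = 0.013), both RNA-binding proteins of developmental timing. With source oil EGR2, a hindbrain segment factor, and GDF11, a signal for trunk-to-tail transition in mouse, were higher and OTX2, a forebrain and midbrain factor, was lower (0.54, 0.62 and -0.49; adjusted p = 0.0017, 0.022 and 0.013). In either direction 2 of 14 rows of this list passed with slick oil and 3 of 14 with source oil. These counts too were near the share over all rows, so they are no result about the list.

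Markers of tissues in which HOX genes act also moved at 72 hpf. Of the fin bud and fin fold markers, 12 of the 15 listed had reads there, HAND2 and MSX1 were at 0, and AND1 has no row. Their summed level was 536 to 578 CPM in controls, 703 to 802 CPM in source oil and 669 to 730 CPM in slick oil. Controls lay below both oils, and the oils overlapped each other. With slick oil 4 of 10 tested rows were higher and none lower, and with source oil 5 of 11, beside 8.55% and 11.4% of all rows that passed as higher. SP9, active at the fin and limb bud rim, read 170, 162 and 156 CPM in controls, 214, 261 and 260 CPM in source oil and 231, 202 and 235 CPM in slick oil (log2 fold change 0.47 with slick and 0.61 with source oil, SE 0.09 and 0.10, edgeR adjusted p = 0.00016 and 4.8e-05). TBX5, which starts the pectoral fin bud, was higher by 0.92 and 0.71 (SE 0.19 and 0.20, adjusted p = 0.00070 and 0.010). The part of this in the HOX values was not tested.

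Tailbud and presomitic mesoderm markers had 3 of 4 tested rows lower with slick oil (DLL1, DLL3 and LFNG, from -0.43 to -0.40) and 2 of 4 higher with source oil, T, the Brachyury gene of notochord and tailbud (1.09, SE 0.24, edgeR adjusted p = 0.0017), and LFNG (0.37, SE 0.13, adjusted p = 0.046). Of all rows, 10.1% passed as lower with slick oil and 11.4% as higher with source oil. Only 6 of the 13 listed tailbud markers had reads at this age. MSGN1, MESP2, HES7, RIPPLY1, RIPPLY2 and TBX6 were at 0. The list's summed level was 361 to 406 CPM in controls, 349 to 460 CPM in source oil and 264 to 314 CPM in slick oil. HOXB13, in contrast, was higher in both oils, and the part of these markers in its values was not tested. Neuron markers summed to 1076 to 1182 CPM in controls, 970 to 982 CPM in source oil and 1065 to 1135 CPM in slick oil. With source oil 2 of 12 tested neuron rows were lower (SNAP25 and SYT1, both of synaptic vesicle release) and none higher. With slick oil SNAP25 was lower and RBFOX3, a marker of mature neurons, higher. These neuron counts, 2 of 12 with each oil, were near the 18.6% and 20.4% of all rows that passed with slick and source oil, so they are no result about the list. STMN2, INA, NEFL, NEFM, TUBB3 and SLC17A6 were at 0 at this age.

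Of the remaining marker lists at 72 hpf, neural progenitor markers had 0 of 10 rows called with slick oil by edgeR or DESeq2 (1 at an unadjusted p under 0.05) and 1 higher and 1 lower with source oil (NOTCH1 at 0.35 and PAX6 at -0.32). Kidney and gut markers had 2 of 9 higher and 1 lower with slick oil, and 2 of 10 higher with source oil, with SLC12A3, a salt transporter of the kidney tubule, higher in both (0.67 and 1.20). Skeletal muscle markers had 1 of 7 higher and 3 lower with slick oil and 1 of 7 higher with source oil. Beside the counts of these lists, 18.6% of all rows passed in either direction with slick oil and 20.4% with source oil. With slick oil 30.9% of all rows were at an unadjusted p under 0.05 in edgeR, and DESeq2 called 12.4%. Over all the lists at 72 hpf, DESeq2 did not make 12 of the 26 edgeR calls with source oil (CBX3, CRABP2, EED, GDF11, KMT2A, LFNG, OTX2, PAX6, SALL4, SNAP25, SYT1 and TBX5). With slick oil it did not make 10 of the 28, among them GATA6, KAT6A, KMT2B, LFNG, LIN28A, PITX1, SLC12A3, TNNI2 and TTN.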

How the data were processed

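RNA sequencing libraries of whole red drum embryos and larvae were deposited as 6 tables, each with 1 oil against control comparison. The read counts per library are whole numbers, not normalized, as deposited. The log2 fold changes and the adjusted p-values in the same tables are the authors' own, per the file headers. Per the submitters' processing notes, HTSeq, DESeq2 and hg19 were used, with no version or role stated; aligner and fish reference: not given in the sources used here. Rows carry human symbols, so no fish position or sequence is given. Some libraries stand in more than 1 table (6 libraries, 7 repeated columns, identical values) and were used once; 1 of 37 library columns, a second column under the name of a source-series control, was not used. Columns were assigned by the library name in the header, also where it contradicted the table's label. On this basis the table named for source oil at 48 hpf holds controls of both series.

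Counts were tested by quasi-likelihood F test after TMM scaling and filterByExpr (edgeR 4.0.16, R 4.3.3), on the whole table, with Benjamini-Hochberg adjustment over all rows tested and calls at an adjusted p under 0.05. SE is the absolute log2 fold change divided by the square root of F. Each comparison of oil against control was fitted on its own oil and control groups alone. Control ages were fitted jointly over 4 control groups and slick-oil ages over 3 groups. The direct contrast of the oils at 72 hpf was fitted jointly with their controls. A test on simulated data recovered 45.5% of changed rows at a log2 change of 0.5 and 87.1% at 1 for slick oil at 72 hpf (8972 rows), and 30.8% and 81.3% for slick oil at 48 hpf (9091 rows). The false share among calls was 4.32% and 6.96%. Changed rows were drawn at random from rows of all levels, so these values do not give the recovery of HOX rows at low counts.

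Alternatives were other size factors, DESeq2 1.42.0, no low-count filter, each library left out in turn, the other series' controls at 48 hpf in both control age contrasts and, at 24 hpf, the replicate number as a block and a 48 hpf control library of the slick-oil table added as a control. Members and lists were chosen with earlier results of these data known. Described in full were members called with oil, the most abundant member of each paralog group in controls, the 4 largest called falls per age contrast, members nearest the threshold, and up to 3 called genes per list and oil comparison. Some genes counted in the totals are not reported by name here. The comparison of control series at 48 hpf, HOXA2, HOXB3 and the marker sums were added after values were seen.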

Additional observations from a re-analysis of the deposited data

Results flagged for a closer look

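HOXC6 was called between the oils at 72 hpf in edgeR, as 1 of 15 members, where 16% of all 9185 rows passed. The members' share was thus under that of all rows, and DESeq2 called 0 of 15, beside 12.5% of rows. The direct contrast of slick against source oil gave a log2 difference of -0.27 (SE 0.09, edgeR adjusted p = 0.047). Levels were 128 ± 4.9 CPM in slick oil, 157 ± 6.0 CPM in source oil and 126 ± 14 CPM in source-series controls (SD, n = 3 each). HOXC6 was lower in 3 of 3 slick-oil libraries than in any source-oil library, and kept the call in 2 of 9 alternatives. Oil type, concentration and series cannot be told apart, since no slick-series control was analysed at this age.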

How the results depend on the processing

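Of 454 recalculations of called HOX genes, 367 kept the call, 87 lost it and 0 changed direction. The count of HOX genes called changed by more than 1.5 times as follows. DESeq2 called 2 at 72 hpf with slick oil (5 in edgeR), 1 with source oil (4), 2 in controls from 24 to 48 hpf (7) and 0 between the oils (1), where dropping the low-count filter also left 0. Between the control series at 48 hpf, DESeq2 size factors in edgeR, DESeq2 and no filter each left 0 of 1. Leaving out 1 library at a time gave 2 to 5 for slick oil and 1 to 3 for source oil at 72 hpf, 0 to 1 for slick oil at 48 hpf, 1 to 7 for controls and 3 to 6 for slick oil from 24 to 48 hpf, 0 to 1 between the oils and 0 to 1 between the control series. For slick oil at 72 hpf, 2 passed without control library 2, 3 without control library 3 and 2 without slick-oil library 1. For source oil at 72 hpf, 2 passed without control library 2 or 3 or source-oil library 1 or 3, and 1 without source-oil library 2. For slick oil from 24 to 48 hpf, 3 passed without 24 hpf replicate 2. From 48 to 72 hpf the counts stayed at 12 to 14 in controls and 11 to 12 in slick oil under all settings run. Calls over all rows also shifted in these comparisons when the tool or the set of libraries was changed. The counts of HOX genes alone therefore do not show a loss particular to HOX rows. The cause of these shifts was not tested.

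With the replicate number as a block at 24 hpf, source oil had 2 HOX genes called, HOXA2 and HOXB3 (log2 fold changes 0.29 and 0.24; 852 rows of the table in place of 531), and slick oil had 0. The labels tie the numbers to no shared spawn or day. In the source-oil table, deviations of same-numbered libraries correlated at 0.14, 0.02 and 0.14, and those of differently numbered libraries from -0.23 to 0.09. In the slick-oil table same-numbered ones gave -0.01 and -0.02. With 2 controls there, their deviations mirror each other, so these values cannot show whether libraries are paired. The main fits did not treat libraries as pairs, and whether they are pairs was not settled. No paired analysis was possible at 48 and 72 hpf because the column names carry no replicate numbers there.

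Scaling to library totals alone moved the summed HOX level to 681 CPM in 72 hpf controls and 822 CPM in source oil. At 48 hpf it moved to 1168 CPM in source-series controls and 1497 CPM in slick oil, which are groups of different series. The slick-series controls at 48 hpf stood at 1522, 1283 and 1317 CPM by library totals, beside 1280 and 1471 CPM at 24 hpf. These alternatives of the summed level were chosen after seeing the data. Members at a few CPM, such as HOXB1 and HOXD12, rest on few counts in the 5 shallower tables. HOXD12 was under the low-count filter there, and passed in controls from 48 to 72 hpf when that filter was dropped.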

Other observations

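Paralog groups that differed between the tables at 24 hpf were closer when neighbouring groups were added together, a sum chosen after seeing the values. In controls, paralog groups 2 and 3 together stood at 174 ± 8.5 CPM (SD, n = 3) in the source-oil table and 175 ± 20 CPM (n = 2) in the slick-oil table, although group 2 alone stood at 78.3 and 38.2 CPM and group 3 at 95.8 and 137 CPM. Paralog groups 6 and 8 together stood at 367 ± 29 CPM and 331 ± 32 CPM, where group 6 alone stood at 177 and 331 CPM and group 8 at 190 and 0 CPM. No sum with groups 9 or 11 was made. All members together stood at 1515 ± 96 CPM and 1430 ± 141 CPM. These tables were scaled separately, so the levels are set side by side without a test.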
